A study of Mus musculus with 8 samples.

Results

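The 9 genes described here encode the receptors and enzymes through which sympathetic and parasympathetic transmitters act on heart muscle. They are Adrb1, Adra1a and Adra1b (adrenergic receptors), Chrm2 (the M2 muscarinic receptor), Adcy5 and Adcy6 (adenylyl cyclases), Adrbk1 (a kinase that phosphorylates active receptors, now called Grk2), and Pde3a and Pde4d (phosphodiesterases that break down cyclic AMP). They were taken by name, with no threshold on their values. Symbols were matched without regard to case, loci named for several genes were split at the comma, and for Adra1b, which has 2 loci, the one with the higher mean was taken. All 9 were found among 80155 loci, of which 39614 carry a gene symbol.

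The RNA came from whole hearts of male Hsd:ICR(CD-1) mice, an outbred stock, 4 taken on postnatal day 1 (P1) and 4 on postnatal day 7 (P7), with the atrial appendages cut away before freezing. No transgene or treatment is given for any of them, and the groups are defined by age. Each heart gave 1 library from RNA depleted of ribosomal RNA, so the replicates are separate mice. The unit is FPKM, the fragments of a locus per kilobase of its length, scaled to all fragments mapped in that library, which allows levels of different genes to be set side by side.

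Noradrenaline from sympathetic nerves and adrenaline from the blood bind beta-1 receptors on cardiomyocytes, which act through the G protein Gs to switch on adenylyl cyclase. The cyclic AMP made in this way activates protein kinase A, which raises calcium entry and release and the force and rate of the beat. Acetylcholine from the vagus binds M2 receptors, which act through Gi to restrain the cyclases and through free G-beta-gamma to open potassium channels, while alpha-1 receptors act through Gq on phospholipase C and protein kinase C.

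The files hold no fragment counts, but low values rise in whole steps, and between 99.2% and 99.9% of them lay within 20% of 1, 2 or 3 steps. This share is a weak check, since the step was taken from the same low values and the bands of 20% around 2 and 3 steps meet. Read as 1 fragment, the step gives a depth of about 11600000 to 18900000 fragments per heart. Depth did not limit the 8 genes that reached 1 FPKM, since the lowest of their values stood for 56.5 fragments per kilobase and Chrm2 reached 923. Adra1a, in contrast, rested on 3.57 to 10.2 fragments per kilobase. P1 replicate 3 stood apart with 28662 loci of at least 1 FPKM, against 20269 to 22292 in the other hearts.

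The 2 genes that passed the test between the stages were both adrenergic receptors, Adra1b and Adrb1, and both were higher in P7. For Adrbk1 the P7 hearts all exceeded the P1 hearts, but the test was not passed. The other 5 tested genes overlapped between the stages, and Chrm2 and Pde4d had the smallest differences. The test was limma on log2(FPKM + 1) over all loci that reached 1 FPKM in any heart, with Benjamini-Hochberg adjustment over all 43172 of them, and a gene was called where the adjusted p was under 0.05 and the stage means differed by a factor of 1.5 or more. By this rule 3.82% of all loci tested and 8.14% of the 17960 annotated ones were called, and 7.74% of the annotated loci were called higher in P7 and 0.401% lower. Of the 9 genes, 8 were tested and 2 of these were called.

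**Figure D1:**
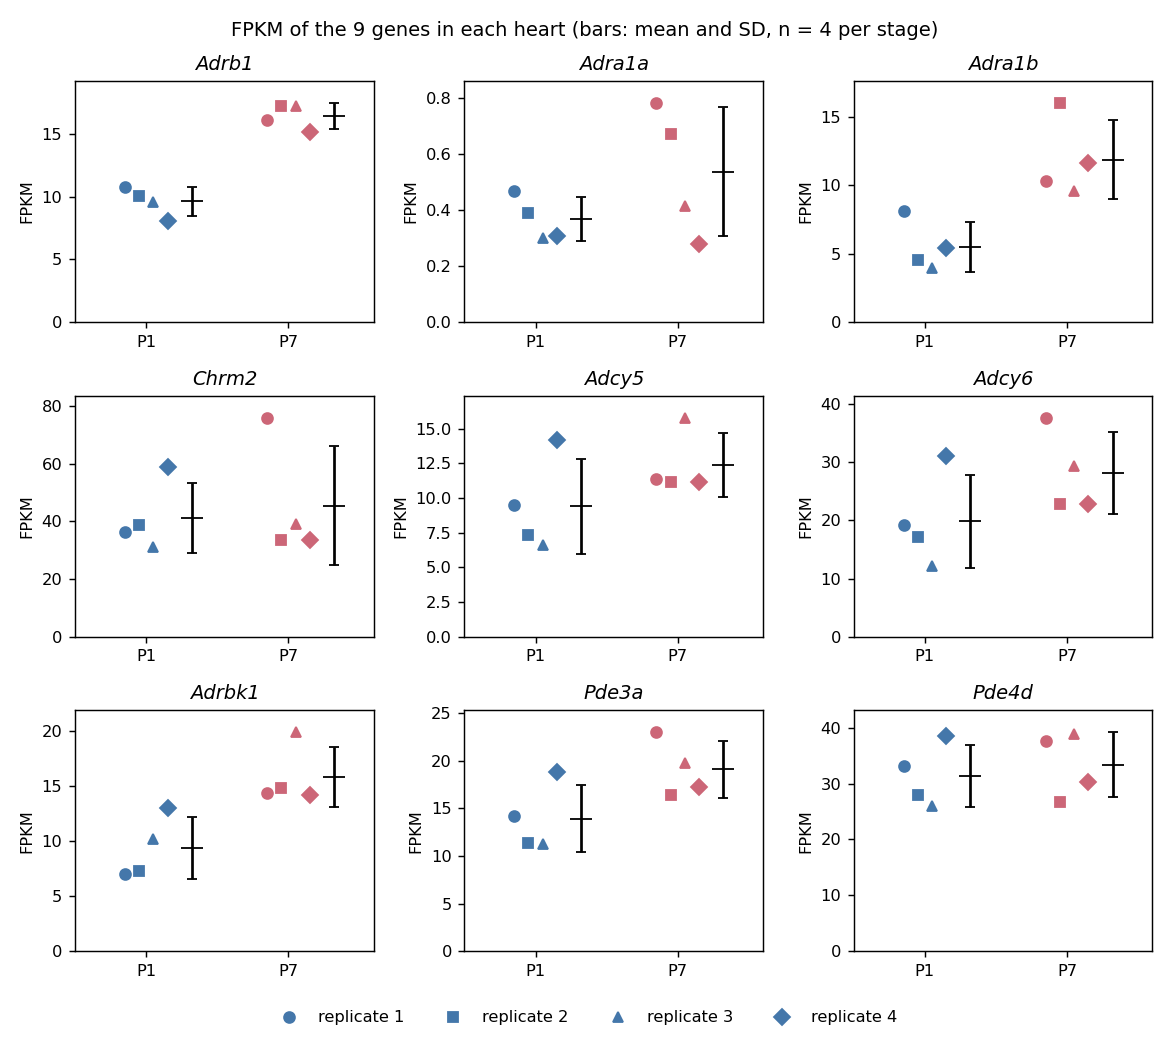
FPKM of the 9 genes (vertical axes from 0, a scale for each gene) in the 4 P1 hearts (blue) and the 4 P7 hearts (red), with marker shape for the replicate number and black bars for the mean and SD. Adrb1, Adra1b and Adrbk1 show no overlap between the stages, while in Chrm2 the P7 replicate 1 heart, at 76.0, stands far above the other P7 hearts.

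Adrb1 encodes the beta-1 receptor, the main target of noradrenaline in the heart. Its locus lies on the plus strand at chr19:56722113-56756766 (GRCm38) and extends beyond the GENCODE gene, which ends at 56733113, over the pseudogene Gm6990. The 250 bases before its RefSeq start (chr19:56721867-56722116, GRCm38.p6, plus strand) are shown because Adrb1 is a called gene. Capitals mark a GC box, the binding motif of Sp1-type factors, at -202, and the TGACG core of the cAMP response element at -90, both counted from the start.
Adrb1: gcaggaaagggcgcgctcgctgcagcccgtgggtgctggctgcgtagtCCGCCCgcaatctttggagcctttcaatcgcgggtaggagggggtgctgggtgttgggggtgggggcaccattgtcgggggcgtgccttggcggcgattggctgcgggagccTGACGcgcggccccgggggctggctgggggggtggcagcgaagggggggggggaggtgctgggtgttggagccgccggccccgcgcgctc

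Of 32851 mouse promoters of this length in the RefSeq table, 32.7% held a GC box (GGGCGG or CCGCCC) and 17.8% the core TGACG or its complement CGTCA. The window has 74.0% G and C, against a median of 52.4%, and 24 CpG against a median of 6. Neither a TATA box (TATAAA or TTTATA, in 12.4% of promoters) nor an M-CAT element (CATTCC or GGAATG, 12.6%) nor an E-box (CANNTG, 66.2%) was found in it. These are matches of letters and no binding was measured.

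Adrb1 stood at 10.8, 10.1, 9.61 and 8.05 FPKM in P1 replicates 1 to 4, and at 16.2, 17.3, 17.3 and 15.1 FPKM in the P7 hearts. The stages did not overlap, and among the 9 genes the hearts of a stage were closest together for this one, with a coefficient of variation of 12.1% in P1 and 6.24% in P7. The mean was 9.64 ± 1.16 FPKM in P1 and 16.5 ± 1.03 FPKM in P7 (SD, n = 4 each), a ratio of 1.71. The difference on the log2(FPKM + 1) scale was 0.72 (SE 0.17, limma, adjusted p = 0.0376). The call was kept without P1 replicate 4 (adjusted p = 0.0305) and lost when any of the other 7 hearts was left out, with adjusted p from 0.0709 to 0.117. It was also lost after median-ratio scaling of the hearts (0.49, adjusted p = 0.137) and after GC correction (0.29, adjusted p = 0.377), and the p-values over all alternatives ran from 0.0138 to 0.836.

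Adra1b encodes the alpha-1B receptor, which couples to Gq. The locus taken lies on the minus strand, the strand of the gene, at chr11:43773904-43901210. The RefSeq table holds 2 starts for Adra1b, printed here because this gene had the largest difference of the 8 tested. The window of the upstream start is chr11:43901238-43901487 and that of the downstream start chr11:43836490-43836739 (GRCm38.p6, minus strand), and capitals mark a GC box at -185 of the downstream start.
Adra1b upstream start: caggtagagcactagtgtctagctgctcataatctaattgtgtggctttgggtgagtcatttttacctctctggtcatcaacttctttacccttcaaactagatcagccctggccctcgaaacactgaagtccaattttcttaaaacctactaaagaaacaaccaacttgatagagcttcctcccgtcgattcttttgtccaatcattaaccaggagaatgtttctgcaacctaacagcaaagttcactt
Adra1b downstream start: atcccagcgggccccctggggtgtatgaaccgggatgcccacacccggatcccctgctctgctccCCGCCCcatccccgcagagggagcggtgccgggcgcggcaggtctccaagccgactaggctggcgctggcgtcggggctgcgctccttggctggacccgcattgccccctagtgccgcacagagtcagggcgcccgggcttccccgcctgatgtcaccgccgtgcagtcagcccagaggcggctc

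These windows differ in base composition. The upstream window has 41.6% G and C and 3 CpG and holds none of the motifs searched, while the downstream window has 72.8% G and C and 22 CpG. The files give 1 value per locus, so the use of the starts was not measured.

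Adra1b measured 8.10, 4.53, 3.97 and 5.44 FPKM in the P1 hearts and 10.3, 16.04, 9.61 and 11.6 FPKM in the P7 hearts. The lowest P7 heart lay above the highest P1 heart, P1 replicate 1. The mean was 5.51 ± 1.83 FPKM in P1 and 11.9 ± 2.88 FPKM in P7 (SD, n = 4 each), a ratio of 2.16. On the log2 scale the difference was 1.00 (SE 0.23, limma, adjusted p = 0.0345). The call was kept without P1 replicate 1 (adjusted p = 0.0300) and without P1 replicate 4 (0.0316), and lost without any of the other 6 hearts, with adjusted p from 0.0657 to 0.118. It was lost after median-ratio scaling (0.79, adjusted p = 0.0878) and GC correction (0.74, adjusted p = 0.125) as well, within p-values from 0.00851 to 0.260 over all alternatives.

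The other locus named Adra1b has the same span and lies in the run of plus-strand loci, antisense to the gene. The strand was inferred from the order of the loci, and for 91.9% of 9053 loci with 1 symbol this inference matched the strand of the GENCODE gene. This locus read 2.18, 2.29, 2.28 and 2.88 FPKM in the P1 hearts and 3.53, 4.39, 4.82 and 4.12 FPKM in the P7 hearts, without overlap. Relative to the sense locus it stood at 26.9% to 57.4% in P1 and at 27.4% to 50.2% in P7. The difference was 0.61 (SE 0.18, limma, adjusted p = 0.0774) and did not pass the test. Whether its fragments came from antisense RNA or from the sense transcript was not tested.

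Adra1a encodes the alpha-1A receptor, the other alpha-1 receptor of cardiomyocytes. Its locus lies on the plus strand at chr14:66635251-66733462 and stops short of the end of the GENCODE gene, at 66771168. Its values were 0.468, 0.391, 0.302 and 0.308 FPKM in P1 and 0.783, 0.672, 0.416 and 0.278 FPKM in P7. No heart reached 1 FPKM, so the gene was not in the test across loci, and the lowest value of all was a P7 heart. The mean was 0.367 ± 0.0785 FPKM in P1 and 0.537 ± 0.231 FPKM in P7 (SD, n = 4 each). The ratio of the means was 1.46. The difference of mean log2(FPKM + 1) was 0.16 (exact two-sided permutation test over 70 assignments, p = 0.314). These values rest on only 3.57 to 10.2 fragments per kilobase, and what size of difference could be detected there was not tested.

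Chrm2 encodes the M2 receptor, the muscarinic receptor of the heart. The locus at chr6:36209620-36528883 is named for both Chrm2 and the long noncoding RNA 9330158H04Rik. The Chrm2 gene itself runs from 36388084 to 36528414 on the plus strand, which is the strand of the locus. The window before the RefSeq start of Chrm2 (chr6:36387834-36388083, GRCm38.p6, plus strand) is shown because GENCODE exons of 9330158H04Rik, on the minus strand, reach into it, so that the genes lie head to head. Capitals mark a GC box at -82, no other motif searched was found, and the window has 12 CpG.
Chrm2: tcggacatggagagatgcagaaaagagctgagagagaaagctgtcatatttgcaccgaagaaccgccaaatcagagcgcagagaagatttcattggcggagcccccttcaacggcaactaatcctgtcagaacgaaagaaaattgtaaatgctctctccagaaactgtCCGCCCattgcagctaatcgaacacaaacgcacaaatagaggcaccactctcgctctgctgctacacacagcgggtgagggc

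Chrm2 was at 36.3, 38.7, 31.0 and 58.8 FPKM in the P1 hearts and at 76.0, 33.5, 39.0 and 33.4 FPKM in the P7 hearts. Within each stage 1 heart stood high, P1 replicate 4 and P7 replicate 1, and the remaining hearts of both stages fell between 31.0 and 39.0. The mean was 41.2 ± 12.2 FPKM in P1 and 45.5 ± 20.5 FPKM in P7 (SD, n = 4 each). The difference was 0.09 on the log2 scale (SE 0.28, limma, adjusted p = 0.859). It was 0.27 (adjusted p = 0.494) without P1 replicate 4, and its sign turned without P7 replicate 1 (-0.18, adjusted p = 0.707), without P1 replicate 3 (-0.03, adjusted p = 0.970) and after median-ratio scaling (-0.15, adjusted p = 0.664).

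P7 replicate 1, the heart with the high Chrm2 value, also had the highest P7 values of Kcnj3, a subunit of the potassium channel that M2 receptors open, and of Sln, an atrial marker. Kcnj3 was at 28.9 FPKM in that heart and between 14.1 and 19.0 FPKM in the other P7 hearts. Sln was at 668 FPKM there and between 364 and 390.0 FPKM in the others. The other genes of these kinds did not all follow. Of the atrial markers Myl7 was highest in this heart too (1364 FPKM, 1100.1 to 1198 FPKM in the others), but Nppa (1119 FPKM) and Myl4 (2101 FPKM) were higher in P7 replicate 3 (1188 and 2513 FPKM), as was Kcnj5, the partner subunit of Kcnj3 (15.26 against 15.35 FPKM). The 4 atrial markers together reached 5252 FPKM in this heart, within the 3898 to 5289 FPKM of the P7 hearts, and 3900 to 5055 FPKM in P1. P1 replicate 4, the P1 heart with the high Chrm2 value, had the lowest P1 values of Sln (148 FPKM), Nppa (1315 FPKM) and Myl7 (1135 FPKM). It had the highest P1 values of Myl4 (2278 FPKM) and Kcnj5 (12.9 FPKM). Kcnj3 was at 14.1 FPKM in that heart and between 11.8 and 16.6 FPKM in the other P1 hearts. The part of atrial tissue in the Chrm2 values was not tested.

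The microRNA gene Mir490 lies within Chrm2, and its mature products are printed to identify the locus that shares the span. Capitals mark the seed, bases 2 to 8, and the 2 arms lie at chr6:36421763-36421782 and chr6:36421800-36421821 (GRCm38.p6, plus strand).
mmu-miR-490-5p: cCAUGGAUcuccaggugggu
mmu-miR-490-3p: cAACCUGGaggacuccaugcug

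The Mir490 locus measured 7.96 to 15.4 FPKM in P1 and 8.61 to 20.02 FPKM in P7, with its highest values in the same hearts as Chrm2. Over the 8 hearts its log2 values had a Pearson correlation of 0.987 with those of Chrm2, as a description, since fragments of the host transcript may be counted there. It did not pass the test (0.06, SE 0.27, limma, adjusted p = 0.901). A further locus of this span named 9330158H04Rik alone did not pass it either (0.12, SE 0.27, limma, adjusted p = 0.791), but the minus-strand locus of that name did. The minus-strand locus, chosen after its values were seen, was at 12.1, 11.4, 14.0 and 10.8 FPKM in P1 and at 28.9, 22.0, 23.8 and 19.5 FPKM in P7, with no overlap. Its difference was 0.90 (SE 0.18, limma, adjusted p = 0.0228). The Chrm2 locus, on the opposite strand and also named for 9330158H04Rik, stood at 0.09.

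The adenylyl cyclases Adcy5 and Adcy6 are the main cyclases of cardiomyocytes, and both are inhibited by Gi. Adcy5 (chr16:35154877-35305737, plus strand) was at 9.47, 7.34, 6.57 and 14.1 FPKM in P1 and 11.4, 11.1, 15.8 and 11.2 FPKM in P7. P1 replicate 4 lay above 3 of the 4 P7 hearts. The mean was 9.38 ± 3.41 FPKM in P1 and 12.4 ± 2.29 FPKM in P7 (SD, n = 4 each), and the difference of 0.40 (SE 0.23, limma, adjusted p = 0.370) did not pass the test.

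The Adcy6 locus (chr15:98571004-98607633, minus strand) does not match the GENCODE gene, which runs from 98589973 to 98610076. It also overlaps the genes 4930415O20Rik and Gm29331. Adcy6 was at 19.2, 17.2, 12.1 and 31.0 FPKM in P1 and 37.7, 22.8, 29.3 and 22.8 FPKM in P7. Here too P1 replicate 4 lay above 3 of the 4 P7 hearts. The mean was 19.9 ± 8.01 FPKM in P1 and 28.1 ± 7.05 FPKM in P7 (SD, n = 4 each). The difference was 0.53 (SE 0.27, limma, adjusted p = 0.315). After GC correction the value was -0.04 for Adcy5 (adjusted p = 0.915), turned in sign, and 0.22 for Adcy6.

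Adrbk1, the receptor kinase GRK2, phosphorylates agonist-bound beta receptors so that arrestins bind and signaling stops. It lies at chr19:4286001-4306222 on the minus strand. Its values were 7.05, 7.32, 10.2 and 13.03 FPKM in the P1 hearts and 14.4, 14.9, 19.9 and 14.2 FPKM in the P7 hearts. Every P7 heart lay above every P1 heart, which was also the case for 17.3% of the annotated loci tested, while in 2.69% every P7 heart lay below. The mean was 9.39 ± 2.80 FPKM in P1 and 15.8 ± 2.74 FPKM in P7 (SD, n = 4 each), a ratio of 1.68. The difference was 0.72, as large as that of Adrb1, with a larger SE of 0.22, and did not pass the test (limma, adjusted p = 0.0952). It passed without P1 replicate 4 (0.88, adjusted p = 0.0215), and when the fit held annotated loci alone (adjusted p = 0.0447), and its p-values over all alternatives ran from 0.0144 to 0.624.

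The phosphodiesterases Pde3a and Pde4d hydrolyse cyclic AMP, and PDE3 enzymes are inhibited by cyclic GMP. Pde3a (chr6:141249166-141509223, plus strand) was at 14.2, 11.3, 11.3 and 18.8 FPKM in P1 and 23.0, 16.4, 19.7 and 17.2 FPKM in P7. The stages overlapped through P1 replicate 4. The mean was 13.9 ± 3.51 FPKM in P1 and 19.1 ± 2.97 FPKM in P7 (SD, n = 4 each), and the difference of 0.45 (SE 0.21, limma, adjusted p = 0.271) did not pass the test.

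Pde4d, which spans 1508145 bases at chr13:108449593-109957737 on the plus strand, was at 33.1, 27.9, 26.0 and 38.4 FPKM in P1 and 37.7, 26.7, 38.8 and 30.3 FPKM in P7. The hearts of the stages were interleaved. The mean was 31.4 ± 5.58 FPKM in P1 and 33.4 ± 5.80 FPKM in P7 (SD, n = 4 each). The difference was 0.09 (SE 0.20, limma, adjusted p = 0.803), and its sign turned after median-ratio scaling (-0.15).

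All 8 tested genes had a positive difference, with a median of 0.49 on the log2(FPKM + 1) scale, beside a median of 0.19 over all annotated loci tested, of which 12147 of 17960 were positive. Median-ratio scaling of the hearts brought the median of all annotated loci to 0.01, and the 8 genes then ran from -0.15 for Pde4d to 0.79 for Adra1b, with Chrm2 and Pde4d below 0. With this scaling 0 of the 8 genes were called by limma, beside 11.7% of the annotated loci tested. On the deposited values 2 were called, beside 8.14%. By the looser measure of an unadjusted p under 0.05, 3 of the 8 were higher in P7 on the deposited values, beside 25.6% of the annotated loci tested. Among the annotated loci called, the share higher in P7 was 95.1% on the deposited values, 68.7% after median-ratio scaling and 69.8% after quantile normalization.

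**Figure D2:**
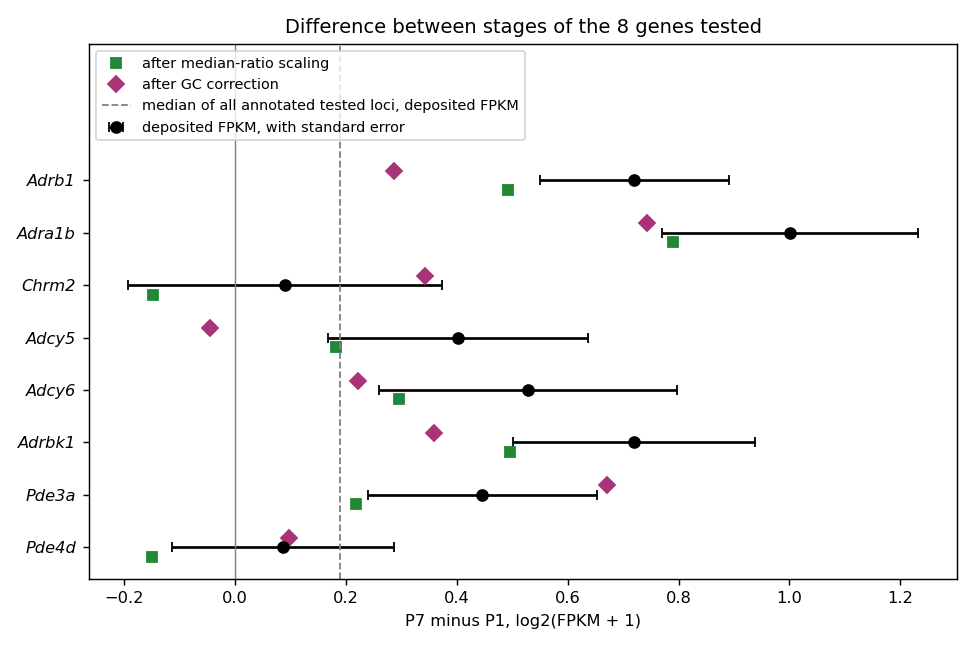
Difference between the stages (horizontal axis, P7 minus P1 on the log2(FPKM + 1) scale, n = 4 hearts per stage) of the 8 tested genes. Black points with bars are limma estimates and standard errors from the deposited FPKM, green squares the estimates after median-ratio scaling, purple diamonds those after GC correction, and the dashed line the median of 0.19 over all annotated loci tested. Adra1b is farthest to the right on each scale, and the diamonds lie left of the black points for Adrb1, Adra1b, Adcy5, Adcy6 and Adrbk1.

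The longest transcripts of the 9 genes range in GC content from 41.6% for Chrm2 and 43.0% for Pde3a to 58.8% for Adrb1 and 59.5% for Adcy5. GC correction, which removed from each heart the smooth trend of its deviations on transcript GC content, moved the genes according to this order. The differences fell from 0.72 to 0.29 for Adrb1 and from 0.72 to 0.36 for Adrbk1, whereas they grew from 0.45 to 0.67 for Pde3a (adjusted p = 0.131) and from 0.09 to 0.34 for Chrm2. With it 0 of the 8 genes and 370 annotated loci were called by limma. The part of GC content in the deposited differences was not tested.

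In P1 the levels ran, from high to low, in the order Chrm2, Pde4d, Adcy6, Pde3a, Adrb1, Adrbk1, Adcy5, Adra1b and Adra1a, and the order of the means was the same in P7. Most neighbours in this order overlapped. In P1 the ranges were separate for Pde3a and Adrb1 and for Adra1b and Adra1a, and in P7 for Adra1b and Adra1a alone. Within single hearts Chrm2 was above Pde4d and Pde4d above Adcy6 in 4 of 4 hearts of each stage. Adrb1, Adrbk1 and Adcy5 had P1 means of 9.64, 9.39 and 9.38 FPKM and changed places between hearts.

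The hearts of a stage differed in the same direction for many of the genes. P1 replicate 4 held the highest P1 value of 6 of the 9 genes (Chrm2, Adcy5, Adcy6, Adrbk1, Pde3a and Pde4d) and the lowest of Adrb1. P1 replicate 3 held the lowest P1 value of 7 of the 9. The geometric mean of 6 cardiomyocyte markers was also highest in P1 replicate 4 (2236 FPKM) and lowest in P1 replicate 3 (1097 FPKM) among the P1 hearts. Among the P7 hearts, replicates 1 and 3 each held the highest value of 4 genes and replicate 4 the lowest of 5. There the markers did not follow the genes in the same way, with 2070.0 FPKM in replicate 1, 1686 FPKM in replicate 2, 2742 FPKM in replicate 3 and 2133 FPKM in replicate 4. The part of cell composition in these values was not tested.

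A ratio of 2 genes within a heart does not depend on how hearts are scaled against each other, and 6 pairs were compared with an exact two-sided permutation test whose smallest p is 0.0286. The ratio of Pde3a to Pde4d was 0.430, 0.406, 0.434 and 0.488 in the P1 hearts and 0.610, 0.612, 0.509 and 0.568 in the P7 hearts. The P7 hearts were all above the P1 hearts, with a difference of 0.39 on the log2 scale (exact permutation p = 0.0286, adjusted p = 0.171 over the 6 pairs), which does not pass the adjustment. The ratio of Adrb1 to Chrm2, the receptors of the opposing transmitters, was 0.297, 0.261, 0.310 and 0.137 in P1 and 0.213, 0.515, 0.444 and 0.454 in P7. It was higher in 3 of 4 P7 hearts than in any P1 heart, and P7 replicate 1 was the exception (difference 0.69, exact permutation p = 0.114, adjusted p = 0.229). A ratio still holds any trend on GC content where the 2 genes differ in it. After GC correction the single differences were 0.29 for Adrb1 and 0.34 for Chrm2, and 0.67 for Pde3a and 0.10 for Pde4d. The part of GC content in the ratios was not tested.

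As read at its locus, which stops short of the GENCODE gene, Adra1a was low beside Adra1b in all hearts. Its ratio to Adra1b ranged from 0.0567 to 0.0864 at P1 and from 0.0239 to 0.0759 at P7 (difference -0.68, exact permutation p = 0.114, adjusted p = 0.229). Adrb1 exceeded Adra1b in all 8 hearts, by a geometric mean of 1.81 times in P1 and 1.41 times in P7 (difference -0.36, exact permutation p = 0.229, adjusted p = 0.343). The ratio of Adcy5 to Adcy6 ranged from 0.428 to 0.545 at P1 and from 0.302 to 0.539 at P7, and the difference was -0.11 (exact permutation p = 0.743, adjusted p = 0.891). Adrb1 and its kinase Adrbk1 stood at a geometric mean ratio of 1.05 in both stages (difference -0.01, exact permutation p = 1).

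**Figure D3:**
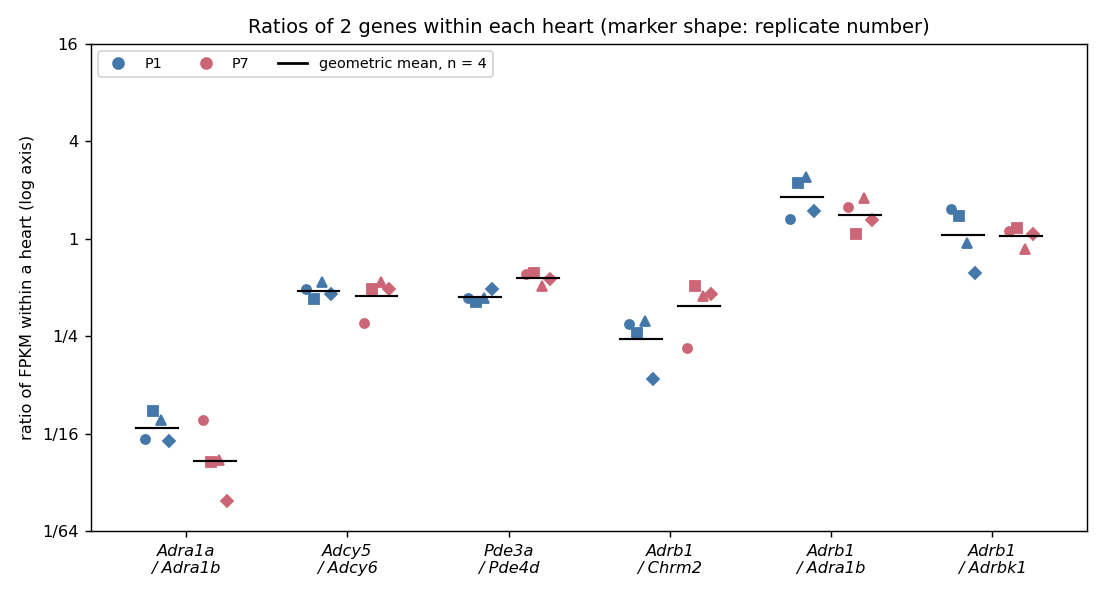
Ratio of the FPKM of 2 genes within a heart (vertical log axis) for 6 pairs, with P1 hearts in blue, P7 hearts in red, marker shape for the replicate number and black lines for the geometric mean of 4 hearts. The Pde3a to Pde4d ratio is the 1 pair whose stages do not overlap, from 0.406 to 0.488 in P1 and from 0.509 to 0.612 in P7.

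In RNA of a whole organ, fewer cells of a type and less RNA per cell cannot be told apart, and markers of cell types moved with the stage. Of the tested fibroblast markers 4 of 6 were called higher in P7 (summed level 450.0 to 812 FPKM in P1, 1048 to 1301 FPKM in P7), of the endothelial markers 3 of 6 (123 to 196 FPKM, then 241 to 362 FPKM), of the smooth muscle and pericyte markers 2 of 6, Pdgfrb and Kcnj8 (sum of all 6, among which Acta2 has the highest mean, 273 to 577 FPKM, then 201 to 304 FPKM), and of the leukocyte markers 1 of 5 (25.0 to 28.9 FPKM, then 46.0 to 66.4 FPKM). By the same rule 7.74% of all annotated loci tested were called higher in P7. Not all markers were higher in P7. Acta2, a smooth muscle actin gene, averaged 281 FPKM in P1 and 148 FPKM in P7 (difference -0.90, limma, adjusted p = 0.126) and the endothelial marker Emcn 29.2 and 21.7 FPKM (-0.43, adjusted p = 0.244), each with every P7 heart below every P1 heart, and neither passed the test. Of the 6 cardiomyocyte markers 0 were called by limma, 2 had an unadjusted p under 0.05, and their sum ranged from 15475 to 27587 FPKM at P1 and from 22437 to 33572 FPKM at P7. No marker found in the files was at 0 in all hearts. Their part in the differences of the receptor genes was not tested. Set against the geometric mean of the cardiomyocyte markers in the same heart, an alternative chosen after the data were seen, Adrb1 differed by 0.34 (exact permutation p = 0.371) and Adra1b by 0.70 (exact permutation p = 0.143), Pde4d by -0.35 (exact permutation p = 0.0571) and Chrm2 by -0.35 (exact permutation p = 0.314).

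The rest of the pathway was described with 12 lists of 125 other genes, of which 124 were found and 100 tested. By limma 9 of the 100 were called higher in P7 and 0 lower, 9%, close to the 8.14% of all annotated loci, while 37 were higher and 2 lower in P7 at an unadjusted p under 0.05, beside 25.6% and 4.1% of the annotated loci. Every P7 heart lay above every P1 heart in 22 of the 100 and below in 2, beside 17.3% and 2.69% of the annotated loci tested. The 9 called genes are among the 22, which follows in large part from the call on the same values. The median difference was 0.37 and 80 of 100 were positive. Left-out hearts changed the count of called genes from 0 without P1 replicate 2 to 30 without P1 replicate 4. It was 2 without P1 replicate 3, 2 without P7 replicate 1, 1 without P7 replicate 3 and 5 without P7 replicate 4. The count over all annotated loci moved too. Of the annotated loci tested, 167 of 17856 were called without P1 replicate 2 and 2835 of 17671 without P1 replicate 4. Called annotated loci numbered 425 without P1 replicate 3, 298 without P7 replicate 1, 278 without P7 replicate 3 and 725 without P7 replicate 4. None of the 100 was called after GC correction, beside 370 of the 17960 annotated loci tested.

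Among ligand receptors outside the 9 genes, the adenosine receptor Adora2a, which couples to Gs, was the 1 called, from 1.80 ± 0.440 FPKM in P1 to 5.17 ± 0.787 FPKM in P7 (difference 1.14, limma, adjusted p = 0.0121). Adora1, which couples to Gi as Chrm2 does, had 3.81 and 5.21 FPKM. Adrb3, the beta-3 receptor gene, averaged 0.163 FPKM in P1 and 0.135 FPKM in P7, below the 1 FPKM needed for the test. The alpha-2 receptors and the other muscarinic receptors averaged below 0.3 FPKM in both stages.

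Of the G proteins 4 of 18 were called, beside 8.14% of the annotated loci tested. Gnai2, the Gi alpha subunit with the highest level here, rose from 58.5 ± 18.6 to 134 ± 25.3 FPKM (difference 1.21, limma, adjusted p = 0.0225). Gna11, a Gq-family subunit, rose from 9.92 ± 2.87 to 20.8 ± 1.92 FPKM, Gna12 from 6.74 ± 2.65 to 14.2 ± 2.50 FPKM, and Gnb2, a beta subunit, from 74.4 ± 13.4 to 141 ± 16.9 FPKM. Gnas, which encodes Gs alpha, had 74.1 ± 27.6 and 123 ± 17.3 FPKM and did not pass (0.79, adjusted p = 0.118), and Gnaq had 20.01 and 20.2 FPKM.

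Downstream of cyclic AMP, Rapgef3, the exchange factor EPAC1, rose from 3.97 ± 1.58 to 10.4 ± 1.53 FPKM (difference 1.24, limma, adjusted p = 0.0188), the 1 called of 8 genes of protein kinase A and EPAC. Rrad, a small GTPase that holds back the L-type calcium channel, rose from 39.1 ± 13.3 to 77.7 ± 7.98 FPKM (1.03, adjusted p = 0.0384), the 1 called of 13 target genes. Of all annotated loci tested, 8.14% were called. The most abundant of the target genes were Tnni3, the cardiac troponin I gene, with means of 1839 FPKM in P1 and 3185 FPKM in P7, and Pln, the phospholamban gene, with 1800.3 and 2362 FPKM, and neither passed the test.

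By limma 0 genes were called among 7 RGS proteins, 5 other adenylyl cyclases, 6 other receptor kinases and arrestins, 14 other phosphodiesterases, 10 A-kinase anchors and 8 Gq effectors. At an unadjusted p under 0.05 these lists held 4, 2, 3, 5, 0 and 3 genes, all higher in P7, a direction in which 25.6% of the annotated loci had such a p. The smallest adjusted p among them was 0.0515, for the RGS proteins. Of the genes of transmitter synthesis, uptake and breakdown, 2 of 8 tested were called, beside 8.14% of the annotated loci tested. Dbh, which makes noradrenaline from dopamine, rose from 1.61 ± 0.542 to 4.92 ± 1.12 FPKM (1.19, adjusted p = 0.0156). At an unadjusted p under 0.05 this list held 2 genes higher and 1 lower in P7, beside 25.6% and 4.1% of the annotated loci tested. In 2 of its 8 tested genes every P7 heart lay below every P1 heart, beside 2.69% of the annotated loci tested. The 2 genes were Bche, the butyrylcholinesterase gene (difference -0.47, limma, adjusted p = 0.218), and Slc18a2, a vesicular monoamine transporter gene (-0.38, adjusted p = 0.293), named after their values were seen. Th, which acts before Dbh, averaged 0.168 FPKM in P1 and 0.0525 FPKM in P7, and was listed at 0 in P7 replicates 3 and 4.

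**Figure D4:**
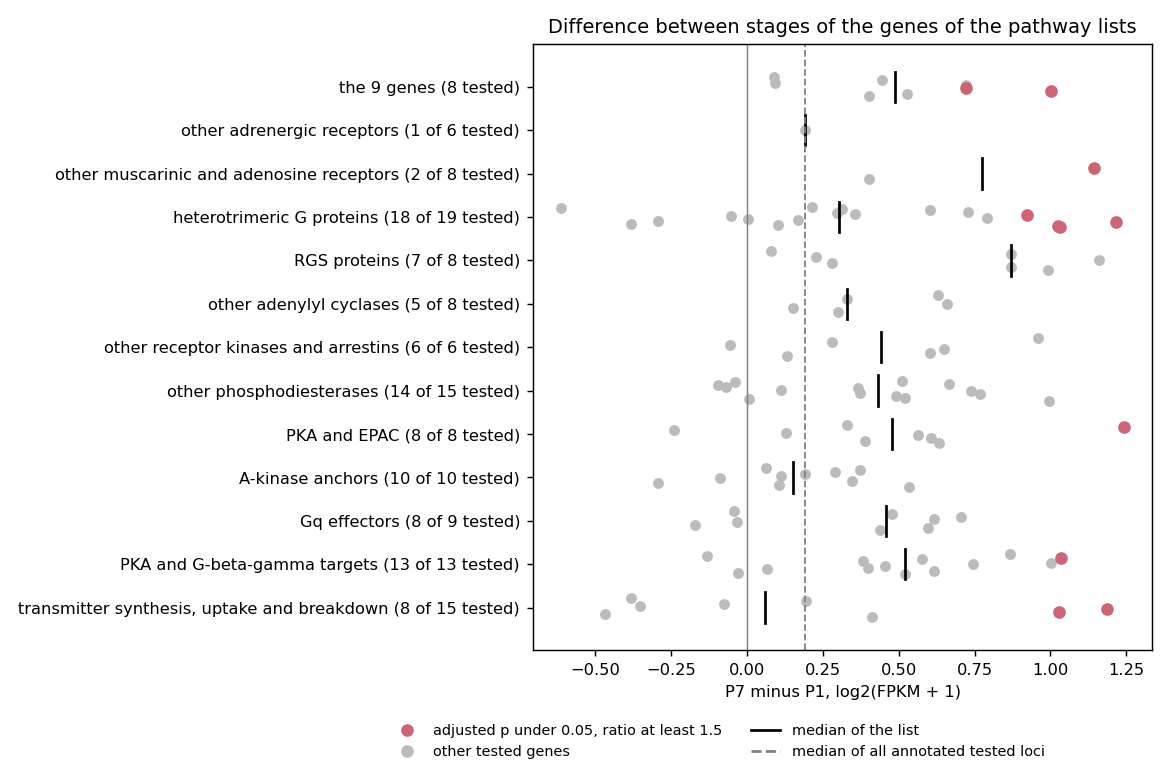
Difference between the stages (horizontal axis, P7 minus P1 on the log2(FPKM + 1) scale) of each tested gene of the 9 genes and of 12 pathway lists, with called genes in red, others in grey, black ticks for list medians and the dashed line for the median of all annotated loci tested, 0.19. The 9 called pathway genes lie between 0.92 and 1.24, and the lists without a red point had no called gene.

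Genes whose log2 values followed those of a member most closely over the 8 hearts were listed by Pearson correlation among 7809 annotated loci with 1 symbol and a mean of at least 5 FPKM. The 8 hearts are the same for all genes, so shared depth and composition enter each value. Adrb1 was followed by Serf1 (0.989) and Polr2i (0.987), Adra1b by Lgals9 (0.973) and Zmiz2 (0.972), and Adra1a by Ythdc1 (0.954) and Gm15903 (0.944). Chrm2 was followed after Mir490 by Senp7 (0.987). Adcy5 was closest to Abr (0.995) and Glt25d1 (0.994), Adcy6 to Gab1 and Zzef1 (both 0.986), Adrbk1 to Mad2l2 (0.975) and Hist1h2ae (0.968), Pde3a to St6gal1 (0.992) and Mll1 (0.991), and Pde4d to BC024479 (0.996) and Lrrfip2 (0.995). No gene stands beside more than 1 member in this list.

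The spans of the 9 loci cover 2555 kb and wholly contain 2 loci without a gene symbol, both within the Adrb1 span. In each heart 1 of them reached 1 FPKM, except P7 replicate 4, where both did (exact permutation p = 1).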

How the data were processed

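RNA-seq was made from 8 whole hearts, 4 per stage, 1 library per heart. According to the study's methods, a ribodepleted ScriptSeq library was sequenced in pairs on a HiSeq instrument, and the authors' provider aligned reads to GRCm38 with Ensembl annotation and summed and normalized them. The deposited unit is FPKM per locus, made by the authors. The aligner is not given in the sources used here. Dividing by all mapped fragments makes a value depend on the most abundant RNAs of its library.

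Loci of at least 1 FPKM in any heart (43172) were compared with limma 3.58.1 (R 4.3.3; lmFit, eBayes with trend) on log2(FPKM + 1), 8 hearts, no covariates, with Benjamini-Hochberg adjustment over all of them. A fold change on this scale understates that of low genes. Single values were compared with an exact two-sided permutation test over 70 assignments of hearts to stages. Python 3.11.15 with scipy 1.17.1, numpy 2.4.6, pandas 2.3.3 and matplotlib 3.10.9 was used for tables and figures, and the scripts were tested on simulated data. File starts count from 0 and positions printed count from 1. Promoter windows and mature microRNAs are from RefSeq (GRCm38.p6), which gave a window for 5 of the 9 members. Transcript GC content is that of the longest GENCODE M21 transcript, known for 91.1% of annotated loci tested. It was smoothed with lowess (span 0.3), and loci without a value were left as they were.

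All 9 members, the called pathway genes, genes named for their level and the 2 genes closest to each member in correlation are named, except that 1 called pathway gene is not reported here. The members and lists were chosen with earlier results of these data known. Each heart was left out in turn. Other alternatives were GC correction, the replicate number as a block, quality weights, eBayes without trend, quantile normalization or median-ratio scaling of the hearts, annotated loci alone, the adjusted p alone, a pseudocount of 0.1, and a filter that asks for 1 FPKM in every heart or none at all. GC correction joined with the block or with scaling, and levels relative to cardiomyocyte markers, were added after seeing the data. No count test was run, since the files hold FPKM.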

Additional observations from a re-analysis of the deposited data

Results flagged for a closer look

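A heart was singled out where its distance to the nearest other heart of its stage took up more of the range of the 4 hearts than Dixon's 95% critical value allows. Among 32 groups of FPKM values or ratios 4 such hearts were found, where chance gives about 1.6. For Chrm2, P7 replicate 1 was at 76.0 FPKM with the other P7 hearts between 33.4 and 39.0. For Adcy5, P7 replicate 3 was at 15.8 FPKM with the others between 11.1 and 11.4. The same heart was at 19.9 FPKM for Adrbk1, where the others lay between 14.2 and 14.9. For the antisense Adra1b locus, P1 replicate 4 was at 2.88 FPKM with the others between 2.18 and 2.29. Unannotated loci of at least 1 FPKM inside the members numbered 2 in P7 replicate 4 and 1 in each other P7 heart, a count that is singled out whenever the other hearts tie, and is left out of the numbers above.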

How the results depend on the processing

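The precision of these results is limited by 8 hearts, with a coefficient of variation of up to 45.1% within a stage, and for Adra1a by depth. On the log2 scale, Adrb1 kept its direction but not its call with no filter (0.72, adjusted p = 0.0568), eBayes without trend (0.72, adjusted p = 0.0599), median-ratio scaling (0.49), quantile normalization (0.47), GC correction alone (0.29) or with scaling (0.060) and relative to cardiomyocyte markers (0.34), and Adra1b likewise with no filter (1.00, adjusted p = 0.0692), eBayes without trend (1.00, adjusted p = 0.0510), median-ratio scaling (0.79), quantile normalization (0.76), GC correction alone (0.74) or with scaling (0.53) and relative to cardiomyocyte markers (0.70). Leaving out 1 heart gave 0.65 to 0.77 for Adrb1, 0.86 to 1.18 for Adra1b, 0.61 to 0.88 for Adrbk1 and -0.18 to 0.27 for Chrm2. Adrbk1 passed with a filter on every heart (0.72, adjusted p = 0.0327), annotated loci alone (0.72, adjusted p = 0.0447), quality weights (0.88, adjusted p = 0.0144) and without P1 replicate 4 (0.88). The sign turned for Chrm2 with median-ratio scaling (-0.15), quantile normalization (-0.16), relative to cardiomyocyte markers (-0.35) and without P1 replicate 3 (-0.03) or P7 replicate 1 (-0.18), for Adcy5 with GC correction (-0.045, also with the block) and with scaling too (-0.26), for Adcy6 with GC correction and scaling (-0.0092), and for Pde4d with median-ratio scaling (-0.15), quantile normalization (-0.18), GC correction with scaling (-0.13) and relative to cardiomyocyte markers (-0.35). The within-heart ratio of Adrb1 to Adrbk1 turned after adding 1 (0.00056) and without P1 replicate 1 (0.17), P1 replicate 2 (0.12) or P7 replicate 3 (0.09), with a range of -0.26 to 0.17 over left-out hearts, and Adcy5 to Adcy6 turned without P7 replicate 1 (0.077), with a range of -0.20 to 0.077. The cause of these changes was not tested.

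Of the 8 tested members, 0 were called with no filter, eBayes without trend, median-ratio scaling, quantile normalization and all GC corrections, and 0 to 3 with a heart left out. The count of 9 pathway genes became 5 with no filter, 25 with a filter on every heart, 18 with median-ratio scaling, 14 with quantile normalization, 30 with quality weights, 20 with annotated loci alone, 0 with GC correction, 2 with GC correction and the block, 5 with GC correction and scaling, and 0 to 30 with a heart left out. The 1462 annotated loci called became 620 with no filter, 2573 with a filter on every heart, 2951 with quality weights, 2521 with annotated loci alone, 941 with eBayes without trend, 370 with GC correction, 343 with GC correction and the block, 825 with GC correction and scaling, and 167 to 2835 with a heart left out. With median-ratio scaling 2104 annotated loci were called, and with quantile normalization 1972.

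Replicate numbers did not pair the hearts, since deviations of same-numbered hearts correlated at 0.058, 0.218, -0.276 and -0.124. With the replicate number as a block, 1 member was called, Adra1b (1.00, adjusted p = 0.0425), Adrb1 was not (0.72, adjusted p = 0.108), and 1052 annotated loci were. With the block and GC correction together Adrb1 stood at 0.29 and Adra1b at 0.74, neither called, and 0 members were.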
